A study of Mus musculus with 4 samples.

Results

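Collagen chains are the gene products that wind around each other into the helical fibres and nets of the extracellular matrix, and 44 genes with a chain name (Col, a number, the letter a and a number) had a transcript probe on the mouse arrays, out of 29875 gene names in all. Members were chosen by that name alone, through 69 probes, with no measured value in the rule, though earlier results of these data were known. The brightest measured probe stood for each gene. Of the 44 chains, 34 were measured and enter the comparison, against 18392 genes tested in the whole series. They were grouped as fibrillar chains, chains of basement membrane collagen (Col4), Col6 chains, fibril-associated chains with interrupted helices (FACIT) and others.

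The arrays held RNA of primary kidney tubular cells, grown in a renal growth medium from male B6.J mice aged 8 weeks, 2 samples of wild type and 2 of SerpinB2-/- cells. All 4 samples had been exposed to PMA, a phorbol ester and activator of protein kinase C, at 100 ng/ml, so the comparison is of genotypes within treated cells. The series asks about plasminogen activator inhibitor-2, which Serpinb2 encodes and which blocks the urokinase and tissue plasminogen activators, in kidney injury and ageing. The labels do not name the deleted part of Serpinb2, nor separate cultures or animals for the samples, so p-values measure the spread between these samples only.

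Fibrillar collagens I, II, III, V and XI form the cross-linked fibrils of connective tissue, where collagen V regulates fibril width and collagen III is laid down with collagen I in scars. Basement membranes, such as that under the kidney tubule, hold a net of collagen IV, whose Col4a1 and Col4a2 chains occur in nearly every tissue and whose Col4a3, Col4a4 and Col4a5 chains build the mature net of the glomerulus and of parts of the tubule. Collagen VI forms beaded microfilaments from Col6a1, Col6a2 and a further chain such as Col6a3, and collagen VII forms the anchoring fibrils that tie a basement membrane to the tissue below it.

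Signals are given as scaled units, in which the 75th percentile of each array is 1000. That percentile lay between 1904 and 2143 raw intensity units and was 314 to 385 times the median negative control. Changes are log2 differences, SerpinB2-/- minus wild type, ± SE of the limma fit with n = 2 per group, and adjusted p is limma's p after Benjamini-Hochberg adjustment over all 18392 genes, with a threshold of 0.05. Serpinb2 itself, probed at chr1:109422046-109422105 (mm9), gave 1600 and 1636 units in wild type. In SerpinB2-/- cells it gave 2.74 and 3.77 units, which did not stand well above background, and it was at least 123-fold lower (adjusted p = 0.00101) when compared with the dimmest signal called above background. Of the tubular epithelial markers 11 of 12 were measured, while Umod, of the thick ascending limb, was not. The keratin genes Krt8 and Krt18 and the kidney cadherin Cdh16 read 29129 units or more on every array. Slc34a1 was dim, at 17.7 to 24.6 units, and Aqp2 read 73.9 to 90.9, Aqp1 285 to 333 and Cubn 361 to 386. The other measured ones lay between 1032 and 6021 units. On their common slide the wild type arrays came before the SerpinB2-/- arrays, so position and genotype cannot be told apart.

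Among the 34 measured chains 4 were higher and 4 lower in SerpinB2-/- cells. Col6a3, Col3a1, Col5a1 and Col5a3 rose, and Col7a1, Col4a3, Col4a4 and Col2a1 fell. This is 11.8% of the chains in each direction, where 5.93% of all tested genes were higher and 9.43% lower. In either direction it is 23.5% of the chains against 15.4% of all genes. No overlap between genotypes was seen for 70.6% of the chains and 64.3% of all genes, with 9 chains higher and 15 lower (26.5% and 44.1%, against 32.6% and 31.6% of all genes). The median change was -0.05 over the chains and 0.01 over all genes, and the chains ranged from -0.67 to 0.98. In RNA of a whole culture, fewer cells of a type and less RNA per cell cannot be told apart, and this holds for every chain below.

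**Figure D1:**
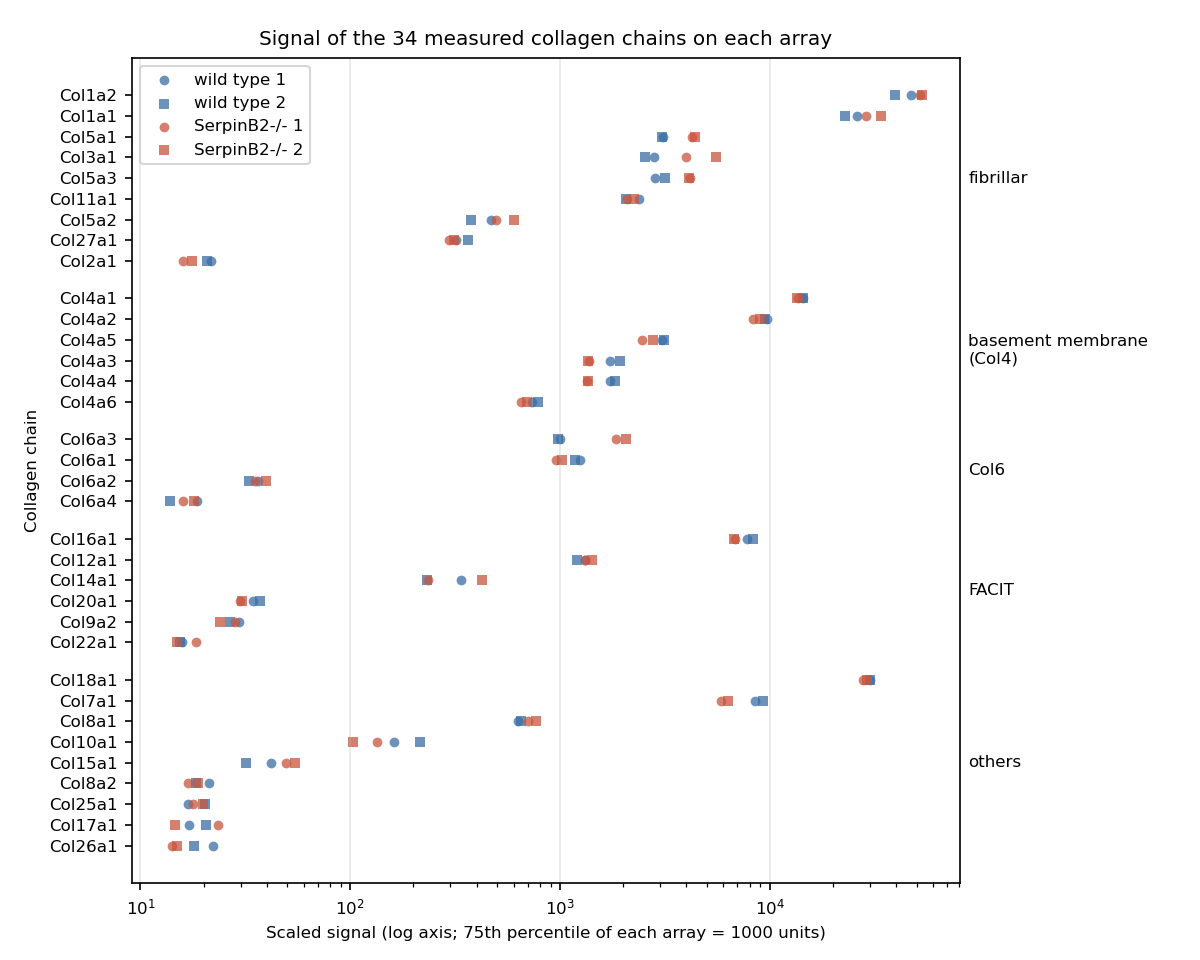
Scaled signal of each measured collagen chain (rows, by group) on the 4 arrays, on a log axis, with wild type in blue and SerpinB2-/- in red and circles and squares for replicates 1 and 2. Col1a2 and Col1a1 are at the top of the fibrillar rows with groups that lie close together, whereas the pairs of Col3a1, Col5a1, Col5a3, Col6a3 and Col7a1 stand apart.

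Most fibrillar chains read higher in SerpinB2-/- cells. Of 11 on the array 9 were measured, and their median change was 0.35. Of these 3 rose and 1 fell (33.3% and 11.1%, against 5.93% and 9.43% of all genes). Groups did not overlap for 6 that were higher and 2 that were lower (66.7% and 22.2%, against 32.6% and 31.6% of all genes). Col11a2, of cartilage fibrils, and Col24a1 were not measured.

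Collagen III is a homotrimer of the Col3a1 chain, probed at chr1:45405589-45405648 (mm9). Its signal was 2793 and 2540 units in wild type against 3962 and 5534 in SerpinB2-/- cells. All SerpinB2-/- values lay above the wild type values, and the SerpinB2-/- samples differed from each other by more than the wild type samples did. The change was 0.81 ± 0.17, or 1.76-fold (adjusted p = 0.0424), and did not pass with quantile normalization (0.77, adjusted p = 0.0620).

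For Col5a1, the chain found in most collagen V and probed at chr2:27892892-27892951 (mm9), the values were 3076 and 3073 units in wild type against 4247 and 4412 in SerpinB2-/- cells. Replicates lay close together in both genotypes. The rise was 0.49 ± 0.06, or 1.41-fold (adjusted p = 0.0126). Col5a3, a rarer chain of collagen V probed at chr9:20574592-20574651 (mm9), read 2820 and 3160 units against 4165 and 4103. It rose by 0.47 ± 0.08 (adjusted p = 0.0244), again without overlap. The remaining chain of collagen V, Col5a2, whose gene neighbours Col3a1, gave 470 and 377 units in wild type against 496 and 601 in SerpinB2-/- cells. Its difference of 0.38 ± 0.15 had the same sign and did not pass (adjusted p = 0.149), with wild type replicate 1 close to SerpinB2-/- replicate 1.

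Collagen I, the main fibril-forming collagen, is built from Col1a1 and Col1a2. The Col1a1 probe read 25998 and 22800 units in wild type against 28623 and 33772 in SerpinB2-/- cells. The groups did not overlap, and the difference of 0.35 ± 0.11 did not pass (adjusted p = 0.102). The Col1a2 probe read 47052 and 39632 units in wild type against 51961 and 53229 in SerpinB2-/- cells, a difference of 0.28 ± 0.10 (adjusted p = 0.117). In both genes wild type replicate 2 was the lowest sample. The difference between the changes of the collagen I chains was 0.07, and the groups overlapped for their ratio.

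The other fibrillar chains did not share the upward direction. Col2a1, the chain of cartilage collagen, was dim, at 21.8 and 20.7 units in wild type against 15.9 and 17.6 in SerpinB2-/- cells. It fell by 0.34 ± 0.08 on the log2 scale (adjusted p = 0.0476), but gave -0.10 (adjusted p = 0.568) under normexp correction, where an offset lifts dim probes. It passed in 6 of 19 alternatives, and not in the authors' deposited table of processed values (-0.26, adjusted p = 0.0813) or with quantile normalization (-0.21, adjusted p = 0.112). Col11a1, which shares fibrils with collagen II and V, differed by -0.03 ± 0.09 with overlapping groups, and Col27a1, of cartilage, by -0.16 ± 0.09 (adjusted p = 0.262).

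In collagen VI the Col6a3 chain rose, and Col6a1 pointed the other way without passing. Of 6 chains on the array 4 were measured and 1 of them passed (25%, against 15.4% of all genes in either direction). The group's median was 0.10, with 0.23 under median scaling or quantile normalization and -0.042 without wild type replicate 2. Col6a3, probed at chr1:92663663-92663722 (mm9), gave 1003 and 979 units in wild type against 1851 and 2054 in SerpinB2-/- cells. Every SerpinB2-/- value was well above the wild type pair. The rise of 0.98 ± 0.07, or 1.97-fold, was the highest of the measured chains (adjusted p = 0.00757).

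Col6a1, a chain that every collagen VI molecule holds, read 1238 and 1177 units in wild type against 953 and 1023 in SerpinB2-/- cells. Its groups did not overlap in the opposite direction to Col6a3, and the difference of -0.29 ± 0.07 narrowly missed the threshold (adjusted p = 0.0527). It passed as lower in 4 of 19 alternatives, among them normexp correction (-0.29, adjusted p = 0.0431). Col6a2, the other chain shared by collagen VI molecules, had a dim probe, at 36.2 and 32.9 units in wild type against 35.1 and 39.9 in SerpinB2-/- cells, and its difference of 0.12 ± 0.09 did not pass (adjusted p = 0.420). Col6a4, a chain of the mouse thought to stand in for Col6a3, read 18.5 and 13.8 units against 15.9 and 17.99, with 1 of the wild type samples not above background, and differed by 0.08 ± 0.16. Its relatives Col6a5 and Col6a6 were not measured, at 3.73 units or less.

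Set against Col6a1 within each array, Col6a3 moved by 1.27 on the log2 scale (pooled SD 0.03 between replicates), and against Col6a2 by 0.86 (pooled SD 0.06). Neither ratio overlapped between the genotypes. These were 2 of 11 pairs of chains compared, for which the exact permutation test cannot go below p = 0.333 with 2 samples against 2 (two-sided), and no pair had an adjusted p under 0.733. Col6a3 is also the measured chain nearest to the deleted gene, 16.8 Mb from the Serpinb2 probe on chromosome 1. The other chains past the threshold on that chromosome are Col4a3 and Col4a4 at 26.7 and 27.0 Mb and Col3a1 at 64.0 Mb. Whether nearness to the locus has a part in these changes was not tested.

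**Figure D2:**
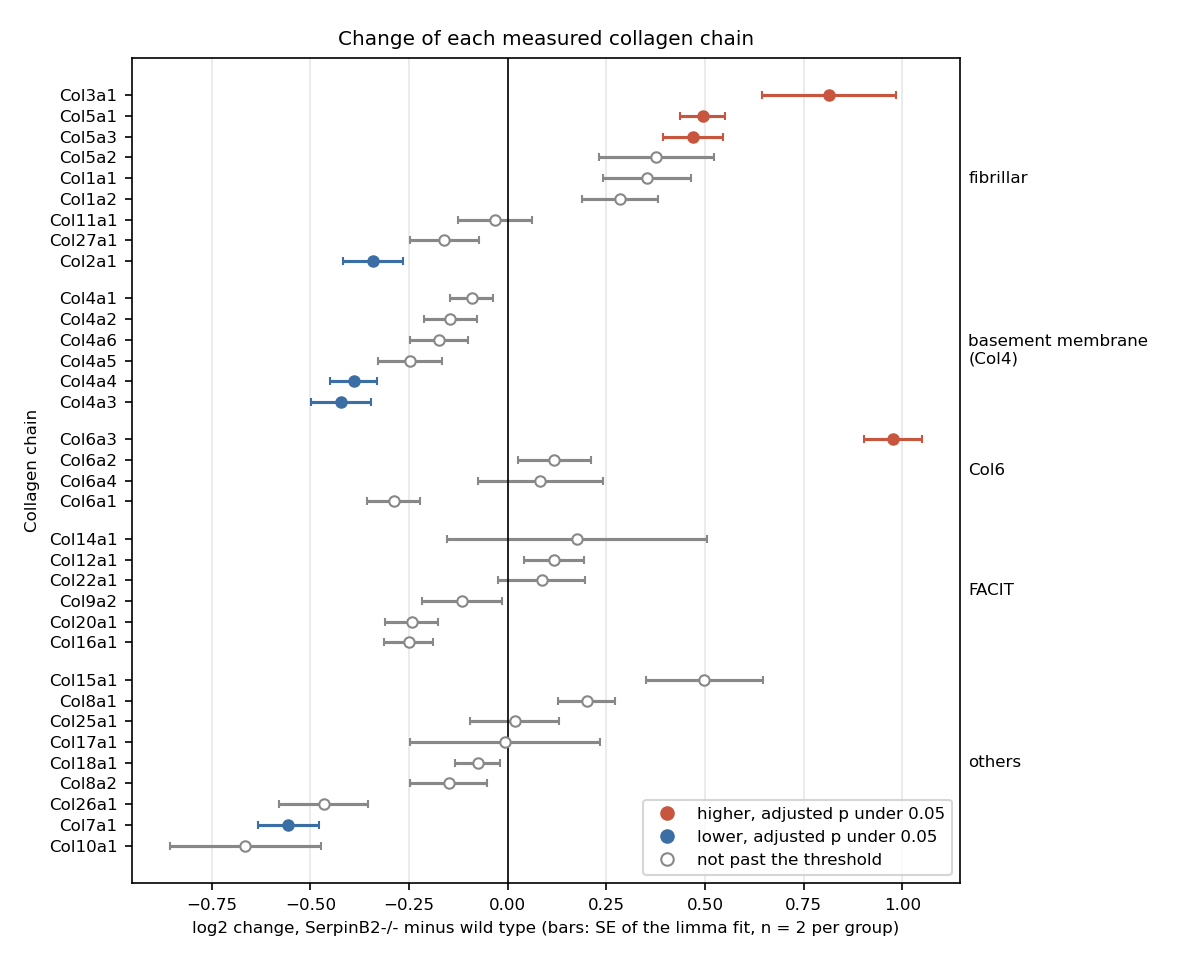
Log2 change of each measured chain, SerpinB2-/- minus wild type, with bars of ± 1 SE of the limma fit (n = 2 per group) and filled points for an adjusted p under 0.05. Col6a3, Col3a1, Col5a1 and Col5a3 are filled on the right, Col7a1, Col4a3, Col4a4 and Col2a1 on the left, and all 6 Col4 chains lie left of 0.

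The 250 bases before the annotated start are shown for 6 chains, to set side by side the promoters of the 4 genes that rose (Col6a3, Col3a1, Col5a1, Col5a3), of Col6a1, which partners Col6a3 and did not rise with it, and of Col7a1, which fell. They are RefSeq sequences of build GRCm38.p6, 5′ to 3′ on the strand of the gene, ending at the base before the start. Capitals mark matches on either strand to any of the motifs searched, and no marked matches overlap in these windows. The TATA box, which positions the start of transcription, was searched as TATAAA. The box bound by the factor NF-Y was searched as CCAAT. The GC box, a site of the factor SP1, was searched as GGGCGG. The site of AP-1, a factor known to act downstream of phorbol esters, was searched as TGANTCA.
Col6a3, chr1:90843972-90844221, minus strand: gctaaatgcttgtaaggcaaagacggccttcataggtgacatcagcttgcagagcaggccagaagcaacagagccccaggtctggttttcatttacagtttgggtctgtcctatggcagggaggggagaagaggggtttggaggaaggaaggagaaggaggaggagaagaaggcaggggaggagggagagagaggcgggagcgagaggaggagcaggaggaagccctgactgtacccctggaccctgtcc
Col6a1, chr10:76726045-76726294, minus strand: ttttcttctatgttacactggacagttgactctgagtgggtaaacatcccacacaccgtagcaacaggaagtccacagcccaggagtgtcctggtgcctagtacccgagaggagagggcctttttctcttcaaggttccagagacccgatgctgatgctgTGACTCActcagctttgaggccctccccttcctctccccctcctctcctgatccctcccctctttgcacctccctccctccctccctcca
Col3a1, chr1:45311288-45311537, plus strand: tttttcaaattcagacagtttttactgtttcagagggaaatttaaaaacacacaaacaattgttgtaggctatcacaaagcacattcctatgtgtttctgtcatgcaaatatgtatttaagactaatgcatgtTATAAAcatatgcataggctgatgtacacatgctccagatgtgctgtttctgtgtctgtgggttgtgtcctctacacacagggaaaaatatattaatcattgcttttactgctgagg
Col5a1, chr2:27886175-27886424, plus strand: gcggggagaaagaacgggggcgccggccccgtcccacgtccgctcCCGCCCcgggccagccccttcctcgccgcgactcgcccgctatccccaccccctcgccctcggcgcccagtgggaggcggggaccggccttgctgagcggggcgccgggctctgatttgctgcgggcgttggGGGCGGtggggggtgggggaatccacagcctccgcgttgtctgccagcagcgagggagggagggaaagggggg
Col5a3, chr9:20815068-20815317, minus strand: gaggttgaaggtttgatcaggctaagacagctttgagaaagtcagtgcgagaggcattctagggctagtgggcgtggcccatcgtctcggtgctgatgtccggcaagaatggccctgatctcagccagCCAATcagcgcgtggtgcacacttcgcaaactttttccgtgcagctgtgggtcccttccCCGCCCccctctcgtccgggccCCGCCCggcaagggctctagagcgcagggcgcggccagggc
Col7a1, chr9:108953336-108953585, plus strand: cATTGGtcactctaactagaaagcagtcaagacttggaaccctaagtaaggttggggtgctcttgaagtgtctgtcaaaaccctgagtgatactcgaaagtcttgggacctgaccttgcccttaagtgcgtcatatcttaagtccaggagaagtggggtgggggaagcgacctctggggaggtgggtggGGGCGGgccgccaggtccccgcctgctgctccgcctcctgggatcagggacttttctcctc

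No motif was shared by all 4 windows of the chains that rose. Col6a3 held none of the motifs. Col3a1 held TATAAA at -117 to -112, counted from the start. Col5a1 held 2 GC boxes, and Col5a3 held a CCAAT box at -122 to -118 and 2 GC boxes. The window of Col7a1 held CCAAT on the opposite strand and 1 GC box, and that of Col4a4, which also fell, held none. The 35 chains in the table had 38 windows, since Col6a2, Col9a1 and Col18a1 have 2 each. The AP-1 letters stood in 1 of the 38, that of Col6a1, at -90 to -84, where 6.75% of all 32851 windows in the table held them. A GC box stood in 22 of the 38 (32.7% of all windows), a CCAAT box in 13 (33.8%) and TATAAA in 5 (12.4%). These are matches of letters in a short window and no measurement of binding.

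Basement membrane chains read lower in SerpinB2-/- cells throughout, by small amounts. All 6 Col4 chains were measured, and for each of them both SerpinB2-/- values lay below both wild type values. The same held for 31.6% of all genes. Of the 6 chains, 2 passed the threshold and 4 did not (33.3% lower, against 9.43% of all genes), and the group's median was -0.21. The directions held in each alternative processing but median scaling, which set Col4a1 at 0.04.

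Col4a3 and Col4a4, partner chains of the mature net, lie side by side on chromosome 1. The Col4a3 probe at chr1:82717775-82717834 (mm9) read 1720 and 1933 units in wild type against 1369 and 1352 in SerpinB2-/- cells, a fall by 0.42 ± 0.08 (adjusted p = 0.0315). The Col4a4 probe at chr1:82447879-82447938 (mm9) read 1724 and 1821 units against 1339 and 1364, a fall by 0.39 ± 0.06 (adjusted p = 0.0219). SerpinB2-/- replicates were nearly equal in both genes. The other 2 probes of Col4a4 gave -0.82 and -0.55 (adjusted p = 0.0106 and 0.0258 in a fit over all probes).

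Their usual partner Col4a5, on the X chromosome, read 3074 and 3122 units in wild type against 2446 and 2779 in SerpinB2-/- cells and differed by -0.25 ± 0.08 (adjusted p = 0.106). Col4a6, whose gene lies next to Col4a5 on the opposite strand with 1343 bases between their starts, read 732 and 787 units against 648 and 699 (-0.17 ± 0.07, adjusted p = 0.172). A further, dimmer probe of Col4a6 gave 0.09. The difference between the changes of this X-linked pair was -0.07, with overlapping ratios.

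The chains of the ubiquitous net gave the smallest differences of this family. Col4a1 read 14348 and 14333 units in wild type against 13531 and 13389 in SerpinB2-/- cells, a difference of -0.09 ± 0.05 (adjusted p = 0.299). Col4a2, whose annotated start lies 21 bases from that of Col4a1 on the opposite strand, read 9672 and 9437 units against 8289 and 8998 (-0.15 ± 0.07, adjusted p = 0.204). Within each array Col4a3 lay lower relative to Col4a1 in SerpinB2-/- cells by -0.33, and Col4a4 relative to Col4a2 by -0.24 (log2), and neither ratio overlapped between the genotypes (exact permutation p = 0.333 each, two-sided, the lowest possible).

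Of the chains outside these families 9 of 12 were measured and 1 passed (11.1%, against 15.4% of all genes in either direction). Col7a1, the chain of anchoring fibrils, probed at chr9:108886861-108886920 (mm9), read 8530 and 9307 units in wild type against 5818 and 6312 in SerpinB2-/- cells. The groups lay clearly apart. It fell by 0.56 ± 0.08, which is 1.47-fold (adjusted p = 0.0183). Col18a1 and Col15a1, basement membrane zone collagens that carry heparan and chondroitin sulphate chains, did not pass at the probes used. The brighter Col18a1 probe gave 29973 and 29953 units against 27862 and 28999 (-0.08 ± 0.06, adjusted p = 0.403), while its other probe gave -0.27 (adjusted p = 0.0416 in the fit over all probes). Col15a1 was dim, at 31.8 to 54.3 units, and differed by 0.50 ± 0.15 (adjusted p = 0.0906), with 0.56 and 0.04 at its other probes.

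Col10a1, the chain of hypertrophic cartilage, had the most negative change of the chains, at 162 and 215 units in wild type against 135 and 103 in SerpinB2-/- cells. The replicates spread widely, and the difference of -0.67 ± 0.19 did not pass (adjusted p = 0.0832), though it did with normexp correction (-0.52, adjusted p = 0.0481). Col8a1, a network-forming chain of vessel walls, gave 0.20 ± 0.07 (adjusted p = 0.129). Col26a1, at -0.47 ± 0.11 (adjusted p = 0.0576), and Col8a2, Col17a1 and Col25a1, between -0.15 and 0.02, were dim, at 23.5 units or less. Col17a1 is the membrane-spanning collagen of hemidesmosomes. The membrane-spanning chains Col13a1 and Col23a1 and the chain Col28a1 were not measured.

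FACIT chains sit on the surface of fibrils. Among 6 measured of 9, limma called 0 in either direction, against 15.4% of all genes. An unadjusted p under 0.05 was found for 2 of the 6 and for 6261 of all 18392 genes. The group's median was -0.02. Col16a1, the brightest, read 7807 and 8331 units in wild type against 6799 and 6751 in SerpinB2-/- cells (-0.25 ± 0.06, adjusted p = 0.0603). It passed as lower in 3 of 19 alternatives, among them the authors' deposited table (-0.27, adjusted p = 0.0433). Dimmer measured probes of Col16a1 gave -0.09 and -0.30 and did not pass (adjusted p = 0.467 and 0.0595 in the limma fit over all probes). Col12a1, which decorates collagen I fibrils, gave 0.12 ± 0.08. Col14a1, another partner of collagen I fibrils, had the widest spread within a genotype, with 339 and 231 units in wild type against 236 and 424 in SerpinB2-/- cells, and no direction can be read from its 0.18 ± 0.33. Col20a1, Col9a2 and Col22a1 were dim and lay between -0.24 and 0.09. Col9a1, Col9a3 and Col19a1 were not measured.

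Samples of 1 genotype were close to each other over all genes, with a median difference of 0.08 (log2) between replicates in each genotype, against 0.14 and 0.13 over the measured chains. Each chain past the threshold was fitted again with each array left out. The remaining sample of a group is then assumed to vary like the other group. Col6a3 passed in all 4 such fits, with adjusted p between 0.00826 and 0.0449. Col3a1, Col5a1 and Col7a1 passed without either SerpinB2-/- sample and did not without wild type replicate 1 (adjusted p = 0.113, 0.0629 and 0.0553) or wild type replicate 2 (0.146, 0.0645 and 0.0766). Col5a3, Col4a3, Col4a4 and Col2a1 passed in none of the 4 fits, with adjusted p between 0.0539 and 0.174. None of the 8 changed direction in these fits, and Col3a1 moved most, from 0.57 without SerpinB2-/- replicate 2 to 1.06 without SerpinB2-/- replicate 1.

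**Figure D3:**
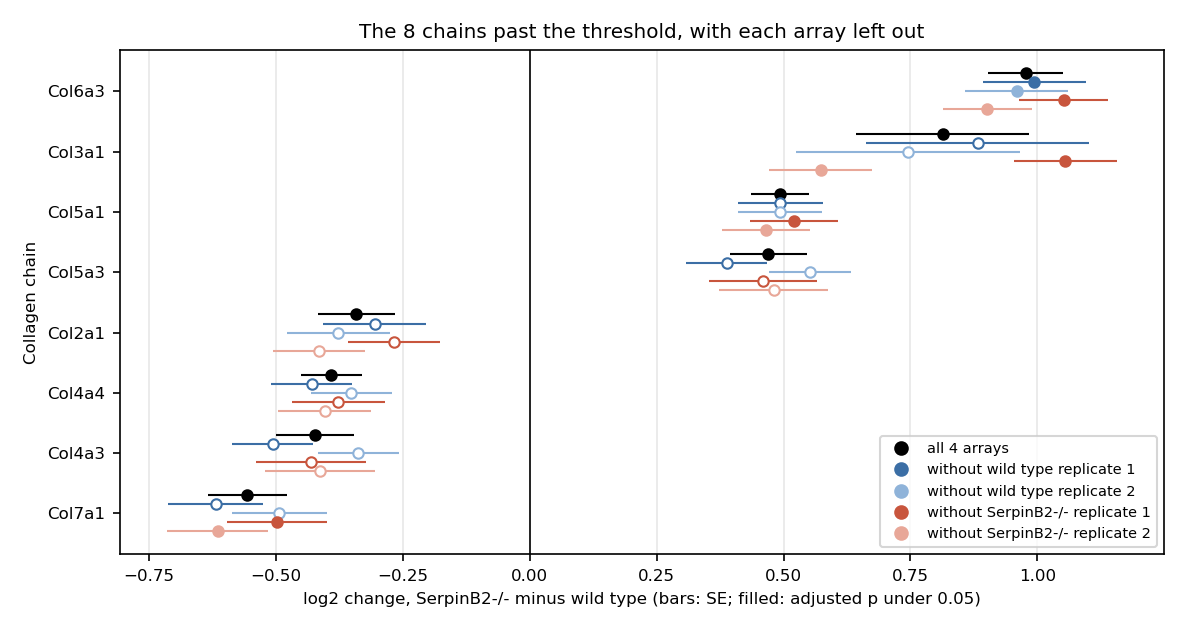
Log2 change of the 8 chains past the threshold with all 4 arrays (black) and with each array left out (colours), with bars of ± 1 SE and filled points for an adjusted p under 0.05. Col6a3 is filled in each fit, and no point crosses 0.

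Collagen chains need enzymes and partners to become matrix, and those genes were described from lists of known roles. Their counts stand against the 5.93% of all genes that were higher and the 9.43% that were lower. Each list had 0 limma calls with no filter on dim probes and 0 with the unmoderated fit. Over all genes, 1 of 29875 and 1 of 18392 passed in these settings, while 5602 and 4453 had an unadjusted p under 0.05. Among 14 measured genes for enzymes that modify prolines and lysines of the chains, or for their partners, 1 rose (7.14%) and 0 fell, with a median of 0.06. The count was 0 with any array left out or with the replicate block, and 6 higher with median scaling. This was P3h4, a partner of the lysine-modifying complex, at 4507 and 4446 units in wild type against 5595 and 5493 in SerpinB2-/- cells (0.31 ± 0.06, adjusted p = 0.0298). Among 10 genes of folding and export 1 rose (10%) and 0 fell, with a median of 0.13. Here too it was 0 with any array left out or with the replicate block, and 5 with median scaling. This was Fkbp10, a collagen chaperone of the endoplasmic reticulum, at 12233 and 11711 units against 14726 and 15987 (0.36 ± 0.07, adjusted p = 0.0356). Serpinh1, the chaperone also called HSP47, did not pass (0.22 ± 0.09, adjusted p = 0.179).

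Of 13 measured genes that cut propeptides or cross-link fibrils 3 rose (23.1%) and 0 fell, with a median of 0.20. None of them passed without wild type replicate 1 or without wild type replicate 2, while 1 of the list passed without SerpinB2-/- replicate 2 and 7 with median scaling. Pcolce, which enhances cleavage of the C-terminal propeptide of fibrillar collagens, rose from 6153 and 5745 units in wild type to 8336 and 10416 in SerpinB2-/- cells (0.65 ± 0.12, adjusted p = 0.0332). The lysyl oxidase relatives Loxl1 and Loxl3, of a family that cross-links collagen and elastin, rose by 0.40 ± 0.06 and 0.46 ± 0.10 (adjusted p = 0.0185 and 0.0426). A dimmer probe of Loxl1 gave 0.24 and did not pass (adjusted p = 0.155 in the limma fit over all probes). Adamts2, which removes N-terminal propeptides, gave 1398 and 1116 units against 1750 and 2188, and its difference of 0.65 ± 0.16 did not pass (adjusted p = 0.0581).

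Matrix proteins that bind collagen went both ways, with 2 of 10 measured higher, 1 lower and a median of -0.03. Thbs2, a thrombospondin that affects collagen fibril assembly, rose from 91.1 and 92.1 units to 223 and 236 (1.32 ± 0.06, adjusted p = 0.00757). Aspn, a small leucine-rich proteoglycan, was not well above background in wild type and was measured only through the SerpinB2-/- arrays. With the main background correction it was at least 1.42-fold higher in SerpinB2-/- cells. With normexp Aspn gave 0.35 on the log2 scale and did not pass (adjusted p = 0.0661). With only probes detected on all 4 arrays this list had 1 higher and 1 lower. Tgfbi, which binds collagens and integrins, fell by 0.76 ± 0.06 (adjusted p = 0.00757). Lum, Fmod, Omd and Prelp, further small leucine-rich proteins, were not measured.

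The non-collagen partners of the basement membrane leaned downward with the Col4 chains. Of 15 genes 4 fell (26.7%) and 0 rose, the median was -0.20, and the genotypes stood apart for 11 genes that were lower (73.3%, against 31.6% of all genes) and 2 that were higher (13.3%, against 32.6%). With an array left out 2 or 3 passed as lower, and median scaling gave 3 lower and 2 higher. Lama3 and Lamb3 encode chains of the epithelial laminin to which the anchoring fibrils of collagen VII bind. Lama3 read 1818 and 2191 units in wild type against 888 and 843 in SerpinB2-/- cells, a fall by 1.21 ± 0.11 (adjusted p = 0.00845). Lamb3 read 10112 and 11886 units against 7475 and 6736 and fell by 0.63 ± 0.10 (adjusted p = 0.0262). Every SerpinB2-/- value of both genes lay below the wild type values, as for Col7a1. Lama5, of the laminins of mature basement membranes, fell by 0.25 ± 0.05 (adjusted p = 0.0462). Lamc1 and Hspg2, the perlecan gene, lay on the other side of 0 at 0.22 ± 0.06 and 0.30 ± 0.09 and did not pass (adjusted p = 0.0727 and 0.103).

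Among 9 measured collagen receptors 1 rose and 1 fell, with a median of 0.00456. The rise was lost without wild type replicate 2 or SerpinB2-/- replicate 2, and the fall without either wild type sample. Itga11, the integrin chain that binds fibrillar collagen on mesenchymal cells, read 1083 and 821 units in wild type against 1475 and 1692 in SerpinB2-/- cells (0.75 ± 0.15, adjusted p = 0.0411). Lair1, an inhibitory collagen receptor of leukocytes, fell from 91.0 and 90.0 units to 61.0 and 61.6 (-0.56 ± 0.05, adjusted p = 0.00957). The integrin chain Itga2 (-0.62 ± 0.15, adjusted p = 0.0555) and the receptor kinase Ddr2 (0.56 ± 0.14, adjusted p = 0.0596) pointed in opposite directions and did not pass.

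**Figure D4:**
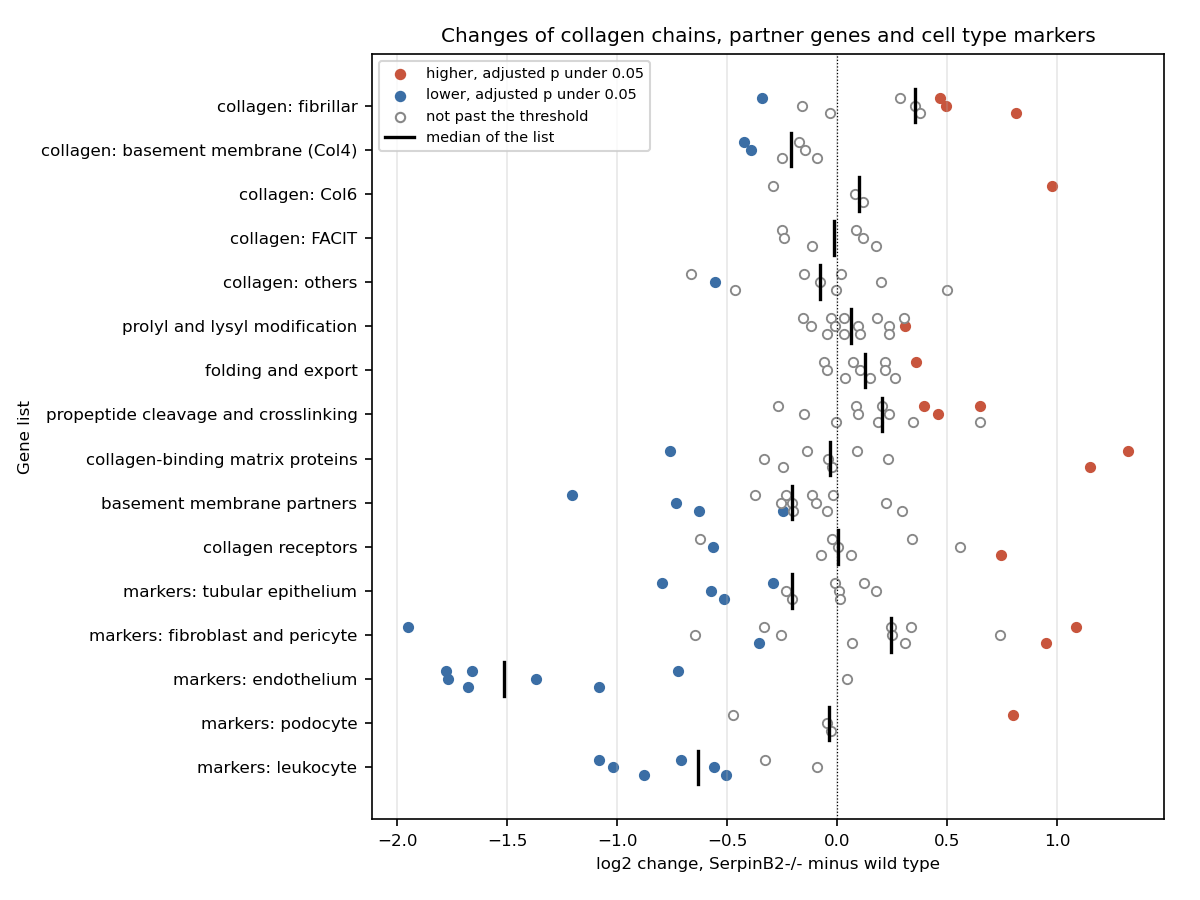
Log2 change of every measured gene of the 5 collagen groups, the 6 lists of collagen partners and the 5 lists of cell type markers, with filled points for an adjusted p under 0.05 and a bar at each median. Fibrillar chains and propeptide and crosslinking genes lie mostly right of 0, and Col4 chains, basement membrane partners and endothelial and leukocyte markers mostly left.

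Markers of other cell types moved in the same samples as the chains. Of 17 fibroblast and pericyte markers, chosen without collagens, 13 were measured. Of these 2 rose and 2 fell (15.4% each, against 5.93% of all genes higher and 9.43% lower), with a median of 0.25. Median scaling gave 5 higher and 1 lower. Postn and Mfap5 were higher by 1.09 ± 0.16 and 0.95 ± 0.18, and Meox1 and Fbln2 were lower, Fbln2 at -0.36 ± 0.06. Meox1 was not above background in SerpinB2-/- cells and was measured only through the wild type arrays. With the main background correction it was at least 2.31-fold lower, and with normexp it gave -0.61 on the log2 scale. With only probes detected on all 4 arrays this list had 3 higher and 1 lower. Acta2, Tagln, Fap and Cspg4 gave 0.31, 0.25, 0.33 and 0.25 and did not pass. Nor did Thy1, Dcn and S100a4, at -0.64, -0.33 and -0.26. Groups overlapped for Acta2 and for Thy1, whose SE was 0.36. Dcn was dim, at 10.9 to 16.1 units, and gave -0.08 with normexp. The summed signal of the 13 markers was mostly that of Tagln, Acta2 and Fbln2. It was 266609 to 310814 units in wild type and 303776 to 333665 in SerpinB2-/- cells, ranges that overlap. The defining markers Lum, Dpt, Rgs5 and Tcf21 were not measured, and Pdgfra differed by 0.07 ± 0.15 and Pdgfrb by 0.74 ± 0.18 (adjusted p = 0.785 and 0.0574).

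Tubular epithelial markers gave 4 lower and 0 higher of 11 measured (1 or 2 lower with an array left out). The 4 are 36.4% of these markers, where 9.43% of all genes were lower. The tubular markers summed to 283663 to 284349 units in wild type and 225269 to 236182 in SerpinB2-/- cells, mostly from Krt8, Krt18 and Cdh16. Cdh1, Epcam, Cdh16 and Krt8 fell by 0.79 ± 0.06, 0.58 ± 0.12, 0.51 ± 0.10 and 0.29 ± 0.06, beside the lower Col4a3, Col4a4, Col7a1, Lama3 and Lamb3. Genes of the proximal tubule did not pass, with Lrp2 and Cubn at 0.01 each, Aqp1 at -0.01 and Slc34a1 at 0.12, and Pax8, of the whole tubule, was at 0.18 ± 0.06 (adjusted p = 0.129). Endothelial markers gave 7 lower of 8 (87.5%), and the share was 75% for the leukocyte markers below, against 9.43% of all genes. The endothelial markers summed to 4612 to 4688 against 2897 to 3535 units. Of this Kdr, the 1 that did not fall (0.05 ± 0.11), made up 2116 to 2524. Most of these endothelial calls were lost with wild type replicate 1 left out, and all of them with wild type replicate 2 left out. Leukocyte markers gave 6 lower of 8, with sums of 9722 to 10544 against 8294 to 8534 units, and 2 lower with either wild type sample left out. Among 4 measured podocyte markers Wt1 rose by 0.80 ± 0.14 (adjusted p = 0.0301), a call lost with SerpinB2-/- replicate 2 or either wild type sample left out. Synpo read 921 and 883 units against 557 and 757 and did not pass with all 4 arrays (-0.47 ± 0.15, adjusted p = 0.106). Without SerpinB2-/- replicate 2 it differed by -0.70, a fall where Wt1 had risen. Podxl was at -0.03 ± 0.12 and Nphs1 at -0.05 ± 0.06. The part of these cell types in the changes of the chains was not tested.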

How the data were processed

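Gene expression was measured on 4 one-colour arrays labelled with Cy3 from 150 ng of total RNA each, and samples were grouped by the genotype label. The deposited scanner files hold spot intensity that had been corrected for background and spatial trend by Agilent Feature Extraction 10.7.3.1, per the file headers. Control spots (17263 per array) and outlier spots were left out, the spots of each of 39429 transcript probes were averaged, and the 75th percentile of each array was subtracted on the log2 scale from these deposited values. Measured probes had over 50% of spots well above background on both arrays of either genotype, and between 23409 and 24476 probes per array were above background, with 0 saturated spots. The number of arrays limits the precision. Positions are those of build mm9, per the file headers, and the exon or UTR a probe covers was not determined. Symbols were updated through a RefSeq table of GRCm38.p6 (28328 probes by accession, 243 by an older symbol), and 35 of 44 chains had a promoter window there. The test was that of limma 3.58.1 under R 4.3.3 (lmFit, then eBayes with no trend), and the procedure was tested on simulated data. Where neither array of a group was above background, the bright group was compared, per dim array, with the dimmest signal above background, or with the probe itself where that was brighter.

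Named were Serpinb2, every chain on the array and, from every other list, at most 4 members that passed, by size of change; some list members are not reported here. The members, the lists and the markers were chosen with earlier results of these data known. Replicate numbers come from the titles, and no label ties equal numbers to an animal, litter or day. Deviations of same-numbered samples from their group means correlated at r = 0.26 over all genes, which with 2 pairs does not make them pairs. The 20 alternatives were other background, scaling, filter, probe, spot, fit and threshold settings, the authors' deposited table of processed values, the replicate number as a block, and each array left out.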

Additional observations from a re-analysis of the deposited data

How the results depend on the processing

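Of the 8 chains past the threshold none changed direction under any of the alternatives. The 4 chains higher, 4 lower and 2825 genes in all became 9 higher and 5584 in all with median scaling, under which all genes had a median of 0.14 and the share of called genes that were higher went from 38.6% to 78.0%. The chains added as higher were Col1a1, Col1a2, Col5a2, Col15a1 and Col8a1, and Col2a1 no longer passed. Scaling by detected probes gave 7 lower, with Col6a1, Col16a1 and Col26a1 added, and a share of 28.5% higher. An adjusted p under 0.10 gave 9 lower and 4807 in all. With no filter on dim probes 0 chains passed in either direction, and 1 gene in all, with 14 chains and 5602 genes at an unadjusted p under 0.05. Limma's fit without moderation gave 0 chains higher, 0 lower and 1 gene in all, with 9 chains and 4453 genes at an unadjusted p under 0.05. With each array left out, 1 to 3 chains were higher, 0 to 2 lower and 591 to 1747 genes passed in all. The replicate block gave 4 higher, 3 lower and 1983 genes in all, and the shared numbers are not known to pair the samples. The cause of these shifts was not tested.

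Group medians were 0.49 (fibrillar), -0.078 (Col4) and 0.23 (Col6) with median scaling, 0.23 (Col6) with quantile normalization, and with an array left out 0.22 to 0.46, -0.28 to -0.14 and -0.042 to 0.24. Chains that did not pass changed sign as follows: Col17a1 to 0.051 with normexp, 0.12 with quantile normalization and 0.13 with median scaling, Col9a2 to 0.018 with quantile normalization and 0.017 with median scaling, Col4a1 to 0.042, Col11a1 to 0.10 and Col18a1 to 0.057 with median scaling, Col25a1 to -0.022 with detected probes, and Col22a1 to -0.10 in the authors' table. With an array left out the values spanned 0 for Col11a1 (-0.14 to 0.072), Col25a1 (-0.12 to 0.15), Col6a4 (-0.13 to 0.30), Col14a1 (-0.25 to 0.60), Col17a1 (-0.34 to 0.33) and Col22a1 (-0.063 to 0.23). Without Col6a3, which lies within 20 Mb of Serpinb2 and was left out after seeing the data, 3 chains were higher and 4 lower.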
